A study of Mus musculus with 15 samples.

Results

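Mice that lived in an enriched environment when their dentate gyrus was taken were compared, by cytosine methylation, with mice that then lived in standard cages. The 15 animals were female C57BL/6JRj mice aged 7.5 months, with 1 library each, and the labels name no batch. The enriched group held 5 mice that had spent 6 months in enrichment (larger housing with objects to explore). The comparison group pooled 10 mice by their housing at collection: 5 standard mice, kept in standard cages for 6 months, and 5 withdrawal mice, kept in enrichment for 3 months and then in standard cages for 3 months. The comparison asks which methylation levels followed the present housing, and the pooled group therefore mixes a pair of housing histories. Only the enriched mice had 6 months of enrichment, so present housing and total time in enrichment cannot be told apart. CpG positions are the first of the 2 runs of positions in the deposited table. Of 455836 CpG positions, 294044 (64.5%) had a value in at least 4 enriched and 8 pooled mice. Of these, 124 on the Y chromosome or the mitochondrial genome were set aside, which left 293920 CpG sites.

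DNA methylation in mammals sits mostly on cytosines followed by guanine. It is usually low in the CpG-rich stretches at gene starts and high inside and between genes, and its loss or gain at a start often goes with a change in transcription. The dentate gyrus is the part of the hippocampus that receives most cortical input, its main cells are the granule neurons, and it adds new neurons in adult mice, a process that enriched housing is known to raise. Reduced representation bisulfite sequencing reads CpG-rich fragments cut out by a restriction enzyme, so it covers a selected part of the genome. The tissue was bulk, so a change in the share of a cell type and a change of methylation within its cells cannot be told apart.

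Methylation per site was given as a percentage with no read count, so the depth behind each value is unknown. The number of CpG positions with a value was 347148 to 419359 in enriched mice and 297844 to 444106 in pooled mice, and the lowest was standard mouse 1. Most sites were either low or high, with 146957 of the 293920 averaging under 20% and 94842 over 80%. Over the 100562 tested sites that no mouse lacked, a pair of enriched mice differed by 11.2 percentage points on average. An enriched and a standard mouse differed by 11.2 points, an enriched and a withdrawal mouse by 10.5, and a pair of withdrawal mice by 9.76. On this average, enriched mice were as far from each other as from standard mice.

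The limma test was run on log ratios of methylated to unmethylated percentage at 239155 CpG sites, those whose highest and lowest mouse lay 5 points or more apart. It called 3 at an adjusted p under 0.05, which is 0.00125% of those tested, with 1 higher (0.000418%) and 2 lower (0.000836%) in enriched mice. An unadjusted p under 0.05 was reached by 10613 sites, 4.44% of those tested, of which 5298 were higher (2.22%) and 5315 lower (2.22%). The same test called 0 of 37525 windows of 1 kb, 0 of 7068 gene starts (sites within 1 kb of the start of a protein-coding gene) and 0 of 5900 gene bodies (sites farther inside the gene), which is 0% of each kind. At an unadjusted p under 0.05 it gave 1926 windows (5.13%), 372 gene starts (5.26%) and 323 gene bodies (5.47%). Withdrawal against standard mice had 0 calls of any kind, with 10519 sites (4.4%), 1804 windows (4.81%), 349 gene starts (4.94%) and 286 gene bodies (4.85%) at an unadjusted p under 0.05. The p-values set each difference against the spread between these mice, which also holds reading error at an unknown depth. At the 3 called sites the pooled mice did not vary. There the spread came from the enriched mice alone, together with the variance that limma borrows from other sites. In simulated data the single-site test recovered none of the shifts added at sites of intermediate level, so a low count of called sites does not show that few sites differ.

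The 3 called sites lay inside genes, and at each of them every pooled mouse with a value had the same extreme level. Msn encodes moesin, which links the cell membrane to the actin skeleton. Its site on the minus strand at chrX:96150293 (mm10; gene at chrX:96096045-96168553) was 58.6%, 72%, 68.6%, 57.1% and 68.8% methylated in enriched mice 1 to 5. It was at 100% in all 9 pooled mice with a value, so the groups did not overlap. Enriched mice were lower by 35.0 percentage points, a log2 difference of -3.57 ± 0.37 (SE; limma adjusted p = 0.00256). In comparisons with either group of the pool, which share the enriched mice, the limma adjusted p was 0.0918 for standard and 0.0412 for withdrawal mice. The nearest measured CpG on that strand, 73 bases away, was at 100% in all 5 enriched mice and at 94.2% ± 11.6 (SD, n = 9) in pooled mice.

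D16Ertd472e, a gene named only by its mapped position, had the called site that was higher in enriched mice, on the plus strand at chr16:78574142. Enriched mice 1 to 5 had 20.8%, 10.8%, 20.8%, 21.4% and 53.3%, and all 10 pooled mice had 0%. The log2 difference was 2.90 ± 0.39 (SE; limma adjusted p = 0.0394), and mouse 5 stood far above the other enriched mice. Gpatch8, which encodes a protein with a G-patch domain, had the third called site, on the plus strand at chr11:102498845. Enriched mice 2 to 5 had 36.8%, 80.8%, 82.6% and 63.2%, mouse 1 had no value, and all 10 pooled mice were at 100%. The log2 difference was -3.44 ± 0.46 (SE; limma adjusted p = 0.0394). A CpG 24 bases farther on, on the same strand, averaged 83.9% ± 11.1 (SD, n = 4) in enriched and 97.4% ± 8.25 (SD, n = 10) in pooled mice. The RefSeq table used here gives the bounds of these genes but no exons.

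The calls at D16Ertd472e and Gpatch8 lay close to the threshold. They changed when some standard mice were left out, with the weighting of the groups and with the scale. Both sites stayed called without any 1 withdrawal mouse and without any 1 enriched mouse. Their log2 differences did not change when a standard or a withdrawal mouse was left out, since all pooled mice had the same level. Leaving out either kind of mouse thus altered the values at these sites alike, and why the calls differed was not tested. With a block for the mouse number the Msn site was not called (limma adjusted p = 0.0725). It stayed under the threshold without any 1 mouse, on the percent scale and with the 3 groups weighted equally. With that equal weighting neither other site was called (limma adjusted p = 0.0825 for both). D16Ertd472e was no longer called without standard mouse 1 (limma adjusted p = 0.0707), 2 (0.0565) or 3 (0.0521). Gpatch8 was no longer called without any 1 of the 5 standard mice (0.0521 to 0.0707). On the untransformed percent scale, the limma adjusted p of D16Ertd472e was 0.760 and that of Gpatch8 0.748. Leaving out an enriched mouse raised the number of called sites to between 23 and 34, of which 12 to 18 then had only 3 enriched values. Leaving out a withdrawal mouse gave 6 to 10 calls. In simulated data with the mice shuffled, the same test made 7 calls at single sites, all at sites with no added difference. The strands could not be compared, since no opposite-strand partner of a named site met the rule.

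**Figure D1:**
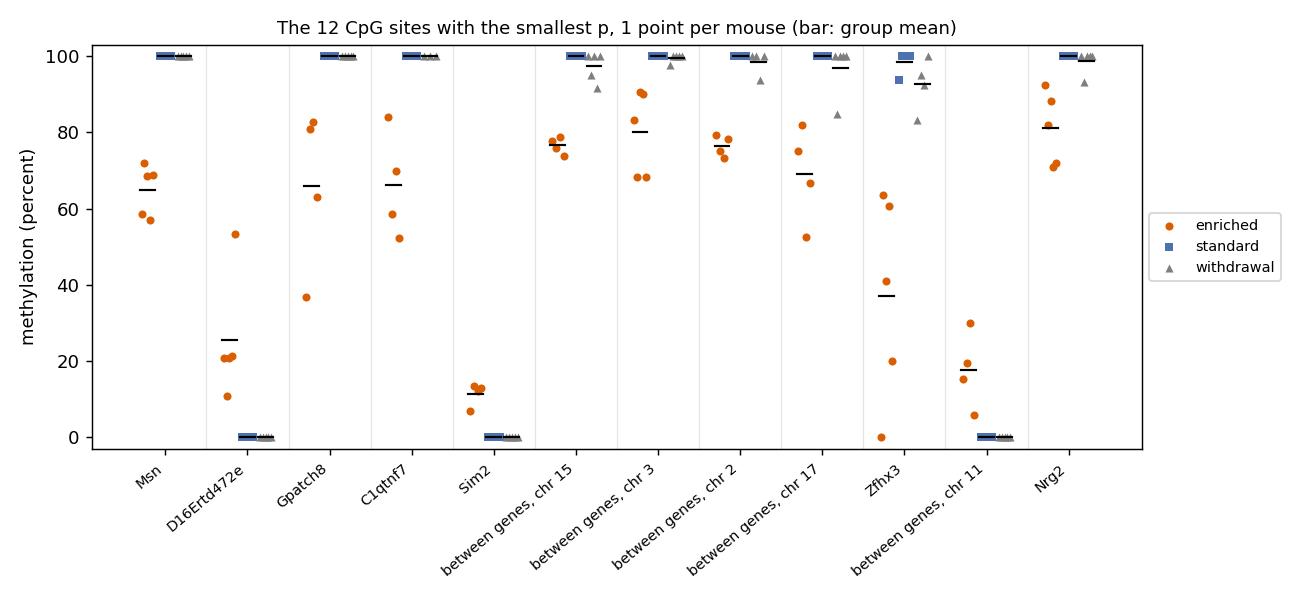
Methylation in percent at the 12 CpG sites with the smallest p, 1 point per mouse, with enriched mice as circles, standard as squares, withdrawal as triangles and bars for group means. At most sites the pooled mice sit at 0% or 100%, and the enriched mice are spread over intermediate levels, as at Msn (57.1% to 72%).

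Among the 9 sites next in order of p, none passed the adjusted threshold, and 7 were lower in enriched mice with pooled levels close to full methylation. C1qtnf7, a secreted relative of C1q and tumour necrosis factor, had 84%, 58.7%, 70% and 52.4% in the 4 enriched mice with a value and 100% in all 8 pooled mice (limma adjusted p = 0.0609). Zfhx3, a transcription factor with zinc fingers and homeodomains, had 0%, 63.6%, 40.9%, 60.7% and 20% in enriched mice against a lowest, median and highest of 83.3%, 97.5% and 100% in 8 pooled mice. That was the widest gap among the named sites, with a log2 difference of -4.69 ± 0.82 (SE; limma adjusted p = 0.555), and the groups did not overlap. Nrg2, a neuregulin that binds ErbB receptors, averaged 81.0% ± 9.56 (SD, n = 5) in enriched and 99.3% ± 2.22 (SD, n = 9) in pooled mice at its site.

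Sim2, a basic helix-loop-helix transcription factor, had a site at chr16:94092470 with 6.82%, 13.5%, 12.1% and 13.0% in 4 enriched mice and 0% in all 10 pooled mice (limma adjusted p = 0.207). Its measured neighbours differed the other way. The CpG 20 bases before it was at 0% in the same enriched mice and averaged 9.37% ± 12.7 (SD, n = 10) in pooled mice, with a highest of 34.5%. The CpG 66 bases before it averaged 0.676% in enriched and 9.66% in pooled mice. The other 5 named sites lay between genes, the closest to a gene 8877 bases from Spats2 and the farthest 107487 bases from Satb1. At chr15:99117049, the one nearest Spats2, enriched mice had 73.9% to 78.8% and pooled mice 91.5% to 100% (limma adjusted p = 0.286), and the CpG 38 bases away averaged 78.3% ± 27.1 (SD, n = 4) against 90.4% ± 14.2 (SD, n = 10).

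Sites with the smallest p leaned towards intermediate levels in enriched mice. An unadjusted p under 0.001 was reached by 265 sites, 0.111% of those tested, with 122 higher (0.051%) and 143 lower (0.0598%) in enriched mice. Where the mean over the mice was under 20%, 84 of 96 such sites were higher in enriched mice. Where it was 80% or over, 101 of 113 were lower, and between those levels 26 were higher and 30 lower. Over all tested sites the split ran the other way, with 41940 of 97829 low sites higher and 40420 of 89205 high sites lower in enriched mice. With an offset of 1 point in the log ratio in place of 5, the shares were 86 of 111 low sites higher and 93 of 133 high sites lower. On the untransformed percent scale they were 65 of 65 and 87 of 87, so the size of the lean depends on the scale.

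The comparison sets 5 mice against 10, and what part the unequal group sizes have in that lean was not tested. Between withdrawal and standard mice, 5 against 5, 280 sites (0.117%) had an unadjusted p under 0.001. Of these, 73 of 111 low sites were higher in withdrawal mice and 66 of 122 high sites were lower. Whether the leans of the 2 comparisons differ was not tested.

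**Figure D2:**
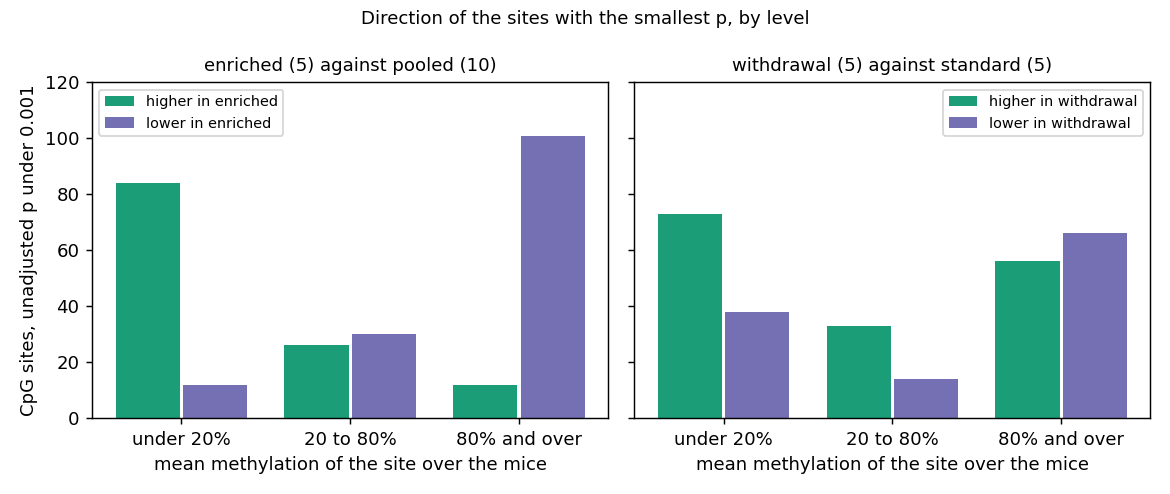
Number of CpG sites with an unadjusted p under 0.001, split by the site's mean methylation (3 classes) and by direction, for enriched against pooled mice on the left and withdrawal against standard mice on the right. On the left 84 low sites were higher and 101 high sites were lower in enriched mice, against 12 and 12 in the opposite directions.

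By place, 44 of the 265 sites lay at gene starts, 96 inside genes and 112 between genes. The other 13 could not be placed, since they lay on chromosomes for which no gene start was given. Genes on such chromosomes are also absent from the gene starts and gene bodies tested. At gene starts 39 of 44 were higher in enriched mice, between genes 79 of 112 were lower, and inside genes 45 were higher and 51 lower. Gene starts are mostly of low and intergenic sites mostly of high methylation, so these directions and those by level describe the same sites. At 146 sites, 0.061% of those tested, every enriched mouse lay outside the range of the pooled mice, 65 above (0.0272%) and 81 below (0.0339%). Of these 146 sites, 63.0% had only 4 enriched values, against 36.1% of all tested sites.

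At gene starts the smallest adjusted p was 0.0686, and none passed the threshold. Of the 372 starts at an unadjusted p under 0.05, 232 were higher in enriched mice (3.28% of those tested) and 140 lower (1.98%), a share of 62.4% higher. With the offset of 1 point the share was 52.2% (203 of 389), and on the percent scale 71.5% (241 of 337). Between withdrawal and standard mice 61.0% of the 349 starts were higher in withdrawal mice. The median difference over all gene starts tested was -0.110 points, and 46.3% of them were higher in enriched mice.

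The starts of 3 genes with small p are shown by sequence, to place the measured CpGs among the bases around them. The letters are RefSeq's, from assembly GRCm38.p6, written 5′ to 3′ on the gene's strand, with measured CpGs in capitals. The stretches are chr10:26772449-26772478 on the plus strand for Arhgap18, chr12:84773236-84773265 on the plus strand for Isca2 and chr6:135118284-135118533 on the minus strand for Gprc5d. The last is the 250 bases before the gene's start.
Arhgap18: CGcctctctccctgtgaatCGctggccCGg
Isca2: ctcctcCGgaagcccaggctaggCGgggat
Gprc5d: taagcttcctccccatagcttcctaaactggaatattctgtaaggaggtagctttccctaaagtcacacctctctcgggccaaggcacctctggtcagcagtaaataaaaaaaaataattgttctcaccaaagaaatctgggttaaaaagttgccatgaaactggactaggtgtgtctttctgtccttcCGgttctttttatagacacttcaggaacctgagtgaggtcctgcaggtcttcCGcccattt
The last CpG of the Arhgap18 stretch, the first of the Isca2 stretch and the first capitals of the Gprc5d stretch stand in CCGG, the letters that the enzyme MspI cuts. In the 250 bases before each start, read on both strands, CCGG occurred 2 times at Arhgap18 and 1 time each at Isca2 and Gprc5d, and it occurs in 47.1% of 32851 such RefSeq windows. Of a pair of motifs of activity-regulated factors, TGACGTCA was in none of the 3 windows (1.55% of all hold it) and TGANTCA was in that of Arhgap18 alone (6.75% of all hold it).

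Arhgap18, which encodes a GTPase-activating protein, had the smallest p among gene starts, over 4 sites 35 to 74 bases before the RefSeq start used (in the RefSeq table the gene's span begins before them, at chr10:26772408). Enriched mice 1 to 5 averaged 5%, 12.5%, 4.63%, 5.63% and 13.3%. Of the 10 pooled mice 8 were at 0%, withdrawal mouse 5 was at 1.47% and standard mouse 5 was at 4.84%, which overlapped the lowest enriched mouse. The log2 difference was 1.32 ± 0.22 (SE; limma adjusted p = 0.0686). The averages rested on 1 CpG in each mouse. Enriched mice 1 to 4 had 20%, 50%, 18.5% and 20% at the last CpG printed and 0% at the others measured. Enriched mouse 5 had 53.3% at a CpG that lies before the printed stretch, and 0% at the rest. Arhgap18 passed the limma threshold without standard mouse 5 (adjusted p = 0.00726), without enriched mouse 3 (0.0434), with the offset of 1 point (0.0285) and when sites that any mouse lacked were left out (0.0266).

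Mapk14 encodes the stress-activated kinase p38 alpha. Over 5 sites, 230 to 299 bases after its start, enriched mice 1 to 5 averaged 5.71%, 5.88%, 18.8%, 2.91% and 9.23%. Of 9 pooled mice 8 were at 0% and withdrawal mouse 3 was at 3.33%, above the lowest enriched mouse (log2 difference 1.37 ± 0.24, SE; limma adjusted p = 0.0877). Here too each enriched mouse had 1 or 2 methylated CpGs, and they were not the same ones. Mouse 1 had 28.6% at the last CpG and mouse 2 had 29.4% at the one before it. Mouse 3 had 50% and mouse 5 had 46.2% at the second. With the offset of 1 point (0.0285) and without enriched mouse 4 (0.0492) Mapk14 passed the threshold.

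Isca2, which helps assemble mitochondrial iron-sulfur proteins, and Npc2, a lysosomal cholesterol carrier, are neighbours whose starts share their 7 measured sites. Enriched mice 1, 2, 3 and 5 averaged 3.57%, 4.72%, 8.35% and 3.17%, and the 8 pooled mice had 0%, 0% and 1.30% as lowest, median and highest (limma adjusted p = 0.0993). The groups did not overlap. In the printed stretch, the first CpG was at 38.5% in enriched mouse 3 and 22.2% in enriched mouse 5 and at 0% in every other mouse with a value, and the second was at 0% throughout. Plppr3, a neuronal membrane protein related to phospholipid phosphatases, and Dmrta1, a transcription factor with a DM domain, had low levels over 16 and 15 sites. Plppr3 averaged 2.84% ± 1.32 (SD, n = 5) in enriched and 0.207% ± 0.328 (SD, n = 9) in pooled mice, and Dmrta1 2.53% ± 0.925 (SD, n = 5) and 0.241% ± 0.518 (SD, n = 10). The groups did not overlap at either gene (limma adjusted p = 0.148 and 0.149). Each enriched mouse was also at 0% at most of these sites, as enriched mouse 3 at 13 of 16 at Plppr3 and enriched mouse 4 at 11 of 15 at Dmrta1. The sites above 0% were partly different ones between enriched mice.

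Gprc5d, an orphan G protein-coupled receptor, was the 1 start among these that was lower in enriched mice. Over 3 sites enriched mice 1 to 5 averaged 93.2%, 81.5%, 80.9%, 89.4% and 65%, against 92.8%, 98.9% and 100% as lowest, median and highest of 9 pooled mice (log2 difference -1.82 ± 0.38, SE; limma adjusted p = 0.149). Enriched mouse 1 alone reached the pooled range. The first CpG in capitals above, 61 bases before the start, was at 100%, 58.3%, 70%, 92.9% and 20% in enriched mice and at 89.7% to 100% in pooled mice. The CpG 86 bases after the start was at 75% to 86.0% in all 5 enriched mice and at 81.5% to 100% in pooled mice. In all, 6 of the 7068 gene starts (0.0849%) had every enriched mouse outside the pooled range, 5 above (0.0707%) and 1 below (0.0141%). Isca2 and Npc2, both among those above, are the same measured sites counted for each gene. Of the 6 starts, 66.7% had only 4 enriched values, against 29.1% of all tested gene starts.

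**Figure D3:**
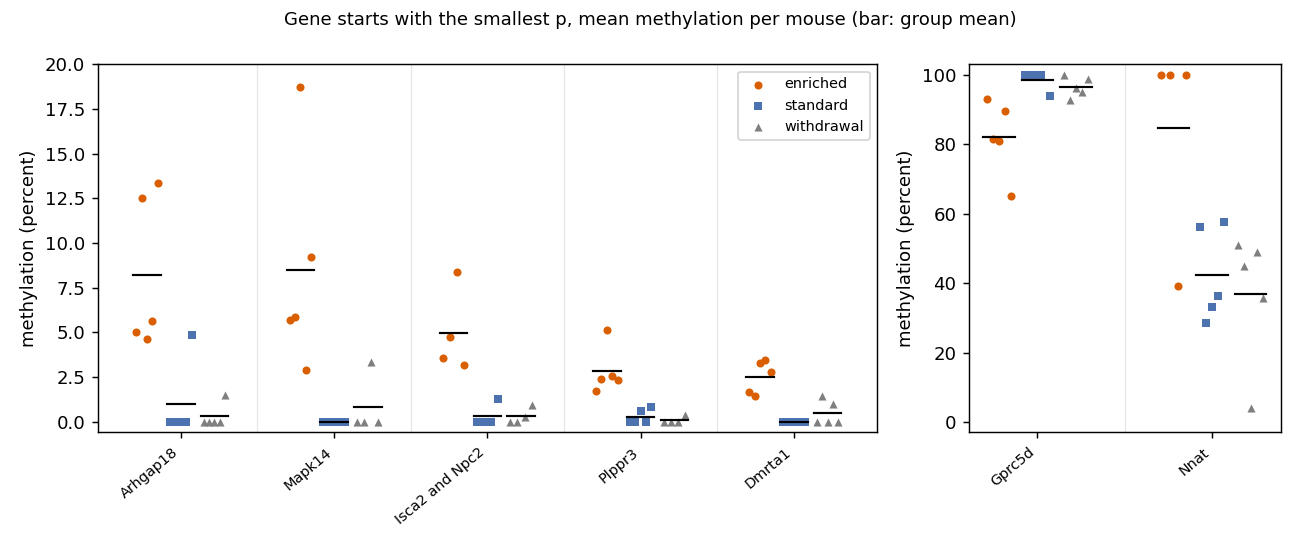
Mean methylation in percent at the gene starts with the smallest p, 1 point per mouse and bars for group means, with the 5 low-methylated starts on the left (axis to 20%) and Gprc5d and Nnat on the right (axis to 100%). Most pooled mice sit at 0% on the left, while enriched mice reach 18.8% at Mapk14.

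Nnat, an imprinted gene that is active on the paternal copy alone, showed the widest difference among these starts. It lies inside Blcap, and 9 minus-strand CpGs within 61 bases, 340 to 400 bases after its start, stood for both genes. All 9 were at 100% in enriched mice 1, 2 and 5. Enriched mouse 3 averaged 39.1%, mouse 4 had no value, and the 10 pooled mice ran from 4.02% (withdrawal mouse 3) over a median of 40.5% to 57.5%. So 3 of the 4 enriched mice lay above all pooled mice and 1 lay in the middle of them. The log2 difference was 3.81 ± 0.81 (SE; limma adjusted p = 0.154). Without enriched mouse 3 the limma adjusted p was 0.00314, and without mouse 1, 2 or 5 the start was not called. The 9 sites of 1 mouse could lie close together, as from 33.3% to 38.7% in standard mouse 4, or apart, as from 30% to 70% in standard mouse 1, which lacked some of them. CpGs this close can come from the same reads, so they are not 9 separate measurements.

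**Figure D4:**
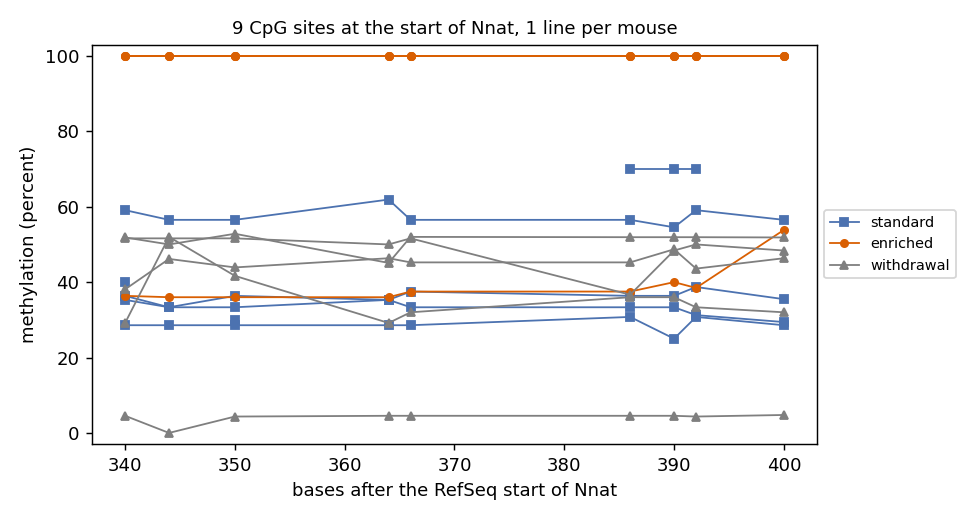
Methylation in percent of the 9 CpG sites at Nnat against their distance in bases from its RefSeq start, 1 line per mouse coloured by group (the lines of enriched mice 1, 2 and 5 coincide at 100%). The fourth enriched line, mouse 3, runs among the pooled mice, and withdrawal mouse 3 lies lowest at 0% to 4.76%.

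Of the 8 windows of 1 kb with the smallest p, 3 held gene starts described above, those of Arhgap18, Mapk14 and Gprc5d. The smallest adjusted p was 0.382, shared by the windows of Arhgap18, Mapk14, Ltbp4, Vkorc1l1 and Gm12880. At Ltbp4, which binds latent transforming growth factor beta, 4 sites averaged 4.14% ± 1.75 (SD, n = 5) in enriched and 0.275% ± 0.586 (SD, n = 9) in pooled mice, with no overlap. The other 5 windows named here had high methylation and were lower in enriched mice. Inside the predicted gene Gm12880, the 4 enriched mice with a value had 41.9%, 55.6%, 70.8% and 65.4% over 3 sites, and 8 pooled mice had 83.8%, 96.7% and 100% as lowest, median and highest. Inside Rsu1, a regulator of cell adhesion, the levels were 85.3% ± 3.68 (SD, n = 5) and 97.6% ± 3.32 (SD, n = 8), also without overlap. In a window partly inside Vkorc1l1, a vitamin K epoxide reductase, they were 91.6% ± 3.37 (SD, n = 5) and 99.5% ± 1.59 (SD, n = 9), with 1 value shared. The last were the window of the Gprc5d start and one between genes on the X chromosome, at 83.6% ± 9.75 (SD, n = 4) and 98.7% ± 3.54 (SD, n = 8). In all, 42 windows (0.112%) had every enriched mouse outside the pooled range, 21 above (0.056%) and 21 below (0.056%). Of these 42, 59.5% had only 4 enriched values, against 29.9% of all tested windows.

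Gene bodies held more intermediate levels, and the 10 with an unadjusted p under 0.001 (0.169% of those tested) were 6 higher (0.102%) and 4 lower (0.0678%) in enriched mice. On the percent scale 10 gene bodies passed that p, 3 higher and 7 lower. Gm32280, a predicted gene, had 9.06%, 5.89%, 2.99%, 10.5% and 6.62% in enriched mice over 8 sites, against 10.6%, 15.2% and 19.5% as lowest, median and highest of 9 pooled mice. All enriched mice lay below all pooled mice (log2 difference -0.96 ± 0.18, SE; limma adjusted p = 0.332). Capn3, a calcium-dependent protease, had 93.8%, 97.8%, 94.8%, 94.6% and 92% in enriched mice over 3 sites, above the 58.0% to 89.8% of all 10 pooled mice (limma adjusted p = 0.332). In all, 8 gene bodies (0.136%) had every enriched mouse outside the pooled range, 5 above (0.0847%) and 3 below (0.0508%). Of these 8, 25% had only 4 enriched values, against 17.1% of all tested gene bodies.

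Of those 10 gene bodies 3 were on the X chromosome, which held 205 of the 5900 tested (3.47%). Pdha1, a subunit of pyruvate dehydrogenase, had 2.22% to 25.2% in enriched mice and 17.8% to 56.7% in pooled mice. Pou3f4, a POU-domain transcription factor of the developing brain, had 40.3%, 25.7%, 50.5%, 36.9% and 28% in enriched and 8.39% to 26.3% in pooled mice. The third, 4932429P05Rik, had 95.2% to 98.3% in enriched and 71.0% to 93.3% in pooled mice. Each rested on 3 to 5 sites, and none passed the adjusted threshold. Mean methylation of the X chromosome was 70.2% ± 1.60 (SD, n = 5) in enriched and 69.8% ± 1.33 (SD, n = 10) in pooled mice (exact permutation p = 0.607, adjusted 0.939). The pool averaged 68.8% ± 1.26 (SD, n = 5) in standard and 70.7% ± 0.514 (SD, n = 5) in withdrawal mice (exact permutation p = 0.0159, adjusted 0.159 over 10 measures). Of the 48 windows with an unadjusted p under 0.001 (0.128% of those tested), 6 were on the X chromosome (12.5%), which held 3.34% of the windows tested. Among single sites, 10 of the 265 with an unadjusted p under 0.001 were on the X chromosome, as were 9570 of the 239155 tested.

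The members of 6 gene lists that fit the tissue and housing were followed at gene starts and in gene bodies, and 0 passed the adjusted threshold in limma at either. The granule cell and neurogenesis list had 15 of 24 genes with a tested body, 2 of them lower and 0 higher at an unadjusted p under 0.05 (2.86% and 2.61% of all gene bodies), with a median difference of -0.877 points against -0.0847 over all gene bodies. C1ql2, a secreted protein of granule cell synapses, had 3.83%, 0.909%, 0%, 1.39% and 2.95% in enriched mice over 8 sites. The 10 pooled mice had 2.95%, 7.23% and 15.3% as lowest, median and highest, and standard mouse 1, the lowest of them, lay below enriched mouse 1 and level with enriched mouse 5. The log2 difference was -1.07 ± 0.24 (SE; unadjusted p = 0.000466, limma adjusted p = 0.393), and 7 of the 8 sites were lower and 1 equal. Pax6, a transcription factor of neural progenitors, averaged 24.5% ± 1.32 (SD, n = 5) in enriched and 29.1% ± 3.36 (SD, n = 10) in pooled mice (unadjusted p = 0.0206, limma adjusted p = 0.860).

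At gene starts the same list had 12 tested members, with 1 higher at an unadjusted p under 0.05, where 3.28% of all gene starts were. Sox11, a transcription factor of immature neurons, had 3.50%, 0%, 4.21% and 2.44% in 4 enriched mice and 0% to 2.63% in pooled mice. Prox1, which defines granule cell identity, had 0.855% ± 0.531 (SD, n = 4) and 1.92% ± 0.982 (SD, n = 10) at its start (limma unadjusted p = 0.134).

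The activity-regulated list, of genes that neuronal firing switches on, had 15 of 25 genes with a tested start, 1 higher and 3 lower at an unadjusted p under 0.05, against 3.28% and 1.98% of all gene starts. Egr2 averaged 2.60% ± 1.35 (SD, n = 5) in enriched and 1.00% ± 0.575 (SD, n = 10) in pooled mice over 50 sites. Fos was at 0% in all 4 enriched mice with a value, at 0.529% ± 0.917 (SD, n = 3) in standard and at 2.07% ± 0.913 (SD, n = 5) in withdrawal mice, over 10 sites 638 to 810 bases after its start. Its limma adjusted p was 0.903, and the standard mice overlapped both other groups. Standard mice 1 and 5 had values at 3 of the 10 Fos sites and are left out of the standard mean. At the site 638 bases after the start they had 0% and 18.5%, where withdrawal mice had 3.33% to 19.4%. Btg2 averaged 0.174% against 1.98%, and Egr4 0.717% against 2.37%. In the bodies of 11 of these genes 0 passed an unadjusted p of 0.05. Homer1, a postsynaptic scaffold, had the widest body difference, with 31.1% to 85.4% in enriched and 25.6% to 66.8% in pooled mice over 3 sites (limma unadjusted p = 0.0746), and Bdnf, a growth factor of activity-dependent plasticity, differed by 0.120 points at its starts and -0.759 points in its body.

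Glutamate receptors and their scaffold had 12 starts and 15 bodies tested, growth factors and their receptors 11 and 13, and the stress axis 4 and 5, each with 0 members at an unadjusted p under 0.05. Their largest differences in size were -3.70 points at the start of Dlg2, a scaffold protein of synapses, and -6.47 points in the body of Kdr, a receptor of vascular endothelial growth factor. In the stress axis, the body of Nr3c2, the mineralocorticoid receptor, averaged 28.1% ± 3.56 (SD, n = 5) in enriched and 23.4% ± 5.95 (SD, n = 9) in pooled mice. At the start of Avpr1a, a vasopressin receptor, the means were 4.11% and 3.98%, while the log2 difference was -0.08, so its sign depends on the scale. The enzymes and readers of DNA methylation had 8 starts and 8 bodies tested, with 1 body lower at an unadjusted p under 0.05 (2.86% of all gene bodies). That was Gadd45g, linked to active demethylation, at 0% in all 5 enriched mice and 2.39% ± 2.25 (SD, n = 10) in pooled mice, 3 of which were also at 0% (unadjusted p = 0.0266, limma adjusted p = 0.876). Dnmt1, the maintenance methyltransferase, was at 0% at its start in all enriched and withdrawal mice with a value and averaged 4.49% ± 4.18 (SD, n = 4) in standard mice.

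**Figure D5:**
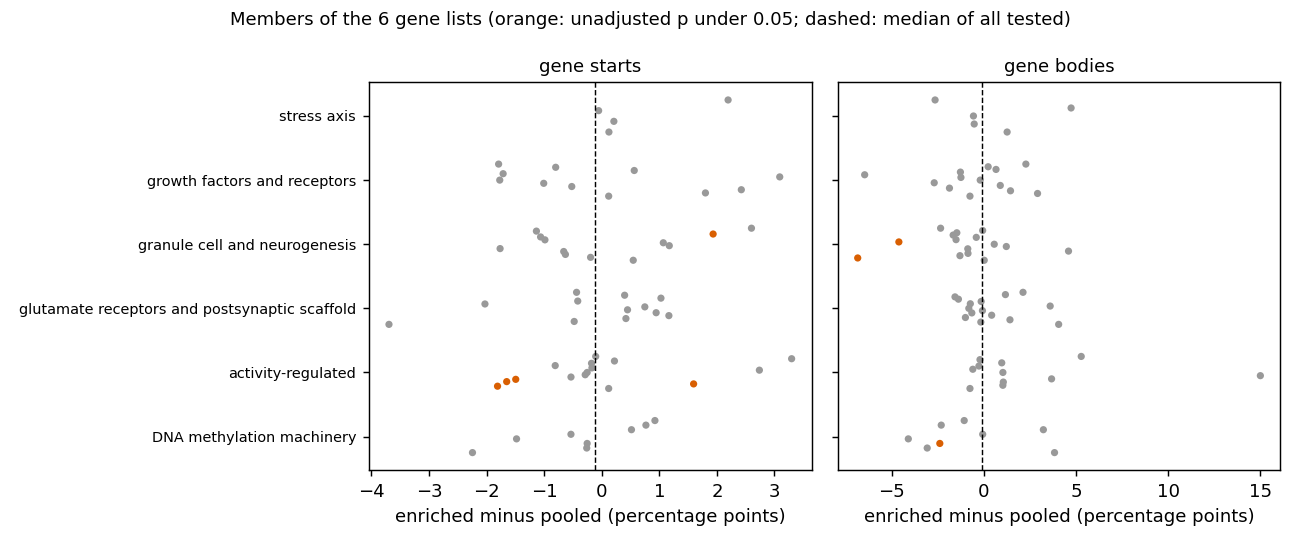
Difference between enriched and pooled mice in percentage points for each tested member of the 6 gene lists, at gene starts on the left and in gene bodies on the right, with orange points for an unadjusted p under 0.05 and a dashed line at the median of all features tested. At gene starts the members lie between -3.70 and 3.30 points.

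Marker genes of the cell types in the tissue were followed in the same way. Over 6 cell types, 8 starts and 14 bodies of markers could be tested, and 0 passed the adjusted threshold in limma. An unadjusted p under 0.05 was reached by 2 bodies, against 5.47% of all gene bodies, that of C1ql2 among granule neuron markers and that of Olig2 among oligodendrocyte markers, which averaged 0% in enriched and 4.50% in pooled mice. Summed over Prox1, C1ql2 and Dsp, body methylation of granule neuron markers ran from 77.0 to 93.6 points in enriched and 85.2 to 106 in pooled mice. For the oligodendrocyte markers Mog and Mag the sums were 133 to 196 and 160 to 188, and for the astrocyte starts Aldh1l1 and Slc1a3 they were 25.3 to 46.5 and 18.1 to 51.4. The interneuron markers Gad1, Gad2 and Pvalb had body sums of 120 to 127 and 78.0 to 137, and the endothelial markers Flt1 and Tek 105 to 156 and 138 to 156. The microglial marker P2ry12 had 95.9% to 100% and 73.8% to 100% in its body. All of these ranges overlapped. What part the mix of cells has in the site differences was not tested.

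Averages over many sites did not separate enriched from pooled mice at the adjusted threshold. Mean CpG methylation over 113832 sites with a value in every mouse was 48.4%, 45.9%, 46.2%, 47.2% and 47.6% in enriched mice 1 to 5. The pooled mice had 46.3%, 47.3% and 48.1% as lowest, median and highest, inside the enriched range. Enriched mice were lower by 0.129 points (exact permutation p = 0.751 over 3003 arrangements, adjusted 0.939), and the direction turned without enriched mouse 2 or 3. At gene starts the means were 7.03% ± 0.370 (SD, n = 5) and 7.05% ± 0.226 (SD, n = 10), inside genes 51.0% ± 1.27 and 51.2% ± 0.708, and between genes 61.8% ± 1.19 and 61.9% ± 0.598. At gene starts the standard mice averaged 6.90% ± 0.216 (SD, n = 5) and the withdrawal mice 7.19% ± 0.124 (SD, n = 5), with an exact permutation p of 0.0317 (adjusted 0.159). Non-CpG positions averaged 0.929% ± 0.0359 and 0.938% ± 0.0299. Between enriched and pooled mice none of 10 such measures had an adjusted exact permutation p below 0.939.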

How the data were processed

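The authors deposited 1 table of percent methylation per cytosine and mouse, made by reduced representation bisulfite sequencing, with no read counts. Per the submitters' processing notes, the tools were Trim Galore 0.4.0, cutadapt 1.8.1, Bismark 0.16.1 and methylKit 1.5.2, with build mm10, and their settings and the minimum coverage are not given in the sources used here. Depth per sample is therefore unknown, and the precision comes from the number of mice.

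Percentages were taken as log2((percent + 5)/(100 - percent + 5)) and compared with limma 3.58.1 in R 4.3.3 (trended variance prior, Benjamini-Hochberg adjustment over all features of a kind, threshold 0.05). A ± marked SE belongs to a log2 difference. Windows of 1000 bases, gene starts (within 1000 bases) and gene bodies needed 3 sites and a range of 2 points. Their level in a mouse is the mean over sites, corrected for sites that mouse lacks by centring each site. Gene positions came from RefSeq (GRCm38.p6), which gave a start and strand for 17492 of 21900 protein-coding genes. All 36174 measured positions inside its promoter sequences lay on a CG. Values with 1 number per mouse were tested by exact two-sided permutation.

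Named features were those with the smallest p: 12 sites, 8 windows, 8 gene starts, 6 gene bodies, and in each gene list 2 starts and 2 bodies. Btg2, Egr4, Bdnf and Olig2 were added after their values were seen. Members and lists were chosen with earlier results of these data known. The alternatives were another offset, the percent scale, the mean of the 3 groups' contrasts, no variance trend, a replicate block, other filters and leaving out each mouse. Simulated data were real values with mice shuffled and shifts added at intermediate levels. There the test at single sites recovered none of the shifts and called 7 unchanged sites. Over windows it recovered 11 of 200 shifts of 20 points and 64 of 200 shifts of 30 points. The counts were 72 and 137 over gene starts, and 161 and 177 over gene bodies. In these 3 kinds it also called 5, 14 and 17 unchanged features. Python 3.11.15 was used for the rest.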

Additional observations from a re-analysis of the deposited data

Results flagged for a closer look

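In 21 of 125 groups of values examined, the highest or lowest mouse stood apart from the others by Dixon's criterion. Chance meets it in about 1 of 20 groups of normally distributed values, a rate that does not hold here. In many of the flagged groups all other mice were tied at 0% or 100%, where any 1 differing mouse meets the criterion. Some groups also share the same sites, so the 21 are not separate findings. Standard mouse 1 had a value at 297844 CpG sites, the fewest of the pooled mice, next to 386681.

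Among enriched mice, mouse 5 stood apart at the D16Ertd472e site (53.3%) and mouse 3 at the Plppr3 start (5.13%) and at the sites shared by the Nnat start and the Blcap body (39.1% for both).

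Among pooled mice, 1 mouse stood apart at several single sites otherwise near full methylation. These were withdrawal mouse 1 at chr3:96987978 (97.7%) and at Zfhx3 (83.3%), withdrawal mouse 2 at chr17:51628700 (84.8%) and at Nrg2 (93.3%), and withdrawal mouse 3 at chr2:33487923 (93.8%). Over several sites, standard mouse 5 stood apart at Arhgap18 (4.84% for the window and the start), Ltbp4 (1.67%) and Capn3 (58.0%), and withdrawal mouse 3 at Mapk14 (3.33% for the window and the start). Standard mouse 2 did so in the Vkorc1l1 window (95.2%) and at the Gadd45g start (11.8%), and withdrawal mouse 4 in the window between genes on the X chromosome (90%). In gene bodies, standard mouse 1 was apart at Nr4a3 (38.3%) and standard mouse 3 at Grin1 (14.5%).

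Positions outside the comparison also held a signal, since 86 CpG positions placed on the Y chromosome had values in enough mice to meet the rule, although all mice were female.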

How the results depend on the processing

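The number of called CpG sites was 3, and it was 1 with the 3 groups' means weighted equally, 9 with no minimum range, 1 among sites that no mouse lacked, and from 1 (without standard mouse 1) to 34 (without enriched mouse 1) when a mouse was left out. Called windows went from 0 to 2 (without enriched mouse 3) and called gene bodies from 0 to 1 (Blcap, without enriched mouse 3). Called gene starts were 2 with an offset of 1 point (Arhgap18 and Mapk14), 1 when sites that any mouse lacked were left out (Arhgap18), and 0 to 2 without a mouse (Arhgap18 and Nnat without enriched mouse 3, Ppia and Tmem238 without enriched mouse 5).

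Over sites, the deviations of same-numbered mice had r of -0.0146 to 0.0132 (15 pairs), and those of other pairs -0.0166 to 0.0184 (60 pairs). Over windows the ranges were -0.0145 to 0.0446 and -0.0325 to 0.0264. An r over all features cannot show a pairing that touches few of them, so whether the numbers pair the mice was not settled. With a replicate block, 0 sites, 0 windows, 3 gene starts (Arhgap18, Mapk14 and Nnat) and 0 gene bodies were called, the limma adjusted p was 0.0725 at Msn, 0.336 at D16Ertd472e and 0.509 at Gpatch8, and mean CpG methylation differed by -0.129 points (exact permutation p = 0.761).

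Of the averages per mouse, 7 changed sign when a mouse was left out, and those of the X chromosome and of non-CpG positions did not. The difference ran from -0.477 to 0.167 points for all CpG sites, -0.135 to 0.0930 at gene starts, -0.631 to 0.169 inside genes, -0.525 to 0.186 between genes, -0.248 to 0.0119 at sites under 20%, -1.48 to 0.426 at 20% to 80%, and -0.210 to 0.207 over 80%. Over all sites of the rule, that over 80% was 0.0110 points. The Avpr1a start turned on the percent scale (0.125 points) and ran from -0.329 to 0.115 (log2) when a mouse was left out. Of 1267 alternative values for 58 named features, 1264 kept the direction, 56 newly passed the threshold and 15 no longer did. The cause of these changes was not tested. Depth is unknown, so an extreme percentage from few reads cannot be told from one from many.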
